A study of Homo sapiens with 12 samples.

Results

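The BCL2 family genes that guard the outer mitochondrial membrane and the genes that form pores in it were followed at the mRNA level in 2 retinoblastoma cell lines after exposure to THZ1. The members were the rows of the deposited count table that carry the symbols of 5 guardians (BCL2, BCL2L1, BCL2L2, MCL1 and BCL2A1) and 3 pore formers (BAX, BAK1 and BOK). These are 8 of 27505 features in the table, and 7 of the 8 had enough reads to be tested.

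Guardian proteins bind BAX and BAK1 and keep them from joining into pores. BH3-only proteins, which are induced or switched on by stress, occupy the guardians or activate BAX and BAK1, and the pores then release cytochrome c, which starts the caspase cascade through APAF1. BOK belongs to the same pore-forming class, does not need BAX or BAK1 to act, and is kept low by degradation at the endoplasmic reticulum. Surplus neurons of the developing retina are removed through this mitochondrial route, and MCL1, whose mRNA and protein are both short-lived in many cell types, is often examined when transcription is inhibited.

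Y79 and WERI-Rb-1 are established human lines grown from retinal tumours, and both carry the genotype label WT. The 4 groups were Y79 in 50 nM THZ1, Y79 in 0.1% DMSO (the solvent), WERI-Rb-1 in 50 nM THZ1 and WERI-Rb-1 in 0.1% DMSO, each kept in its medium for 12 h, with 3 cultures per group and 12 libraries in all. THZ1 covalently inhibits CDK7, a kinase of RNA polymerase II and of cell cycle kinases, and also binds CDK12 and CDK13, and the series asks how it changes transcription in these lines. Each line is a single established line and stands for no other tumour, and the design calls the cultures biological repeats without saying whether they were separate passages or days.

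Libraries held 29677575 to 37433574 counts. The 13 mRNAs of the mitochondrial genome took 9.28% ± 0.729 of counts in THZ1 and 4.20% ± 0.262 in DMSO in Y79, and 10.6% ± 0.726 in THZ1 and 3.87% ± 0.111 in DMSO in WERI-Rb-1 (SD, n = 3 each). The THZ1 library of Y79 replicate 2 stood apart, with 14.7% of its counts in ribosomal protein mRNAs against 10.9% and 10.6% in replicates 1 and 3. Fold changes of BAX and BCL2L2 that rest on it are therefore given also without it. For the other tested members, ranges over fits that leave out 1 library are given in the section on processing. Results of partner genes, and group means of shares, sums and ratios, are given only with it. All 6 photoreceptor lineage markers (CRX, OTX2, RXRG, THRB, RCVRN and NRL) were detected, and their summed level was 650 to 732 CPM in THZ1 and 1263 to 1271 CPM in DMSO in Y79, and 1162 to 1203 CPM in THZ1 and 2182 to 2288 CPM in DMSO in WERI-Rb-1. Of the 6, 4 were called lower in each line, while RCVRN was called higher in both (mean 44.6 CPM in THZ1 and 18.8 CPM in DMSO in Y79, and 322 CPM in THZ1 and 156 CPM in DMSO in WERI-Rb-1) and NRL was called higher in WERI-Rb-1 and not called in Y79. Markers of other cells were low, with sums of at most 4.26 CPM for 3 blood markers, 3.14 CPM for 2 epithelial markers and 5.80 CPM for 4 glial and pigment epithelium markers. The 4 stromal markers summed to 3.03 to 4.03 CPM in THZ1 and 1.86 to 2.67 CPM in DMSO in Y79, and to 51.5 to 54.1 CPM in THZ1 and 23.5 to 26.3 CPM in DMSO in WERI-Rb-1, nearly all of it COL1A1. The other stromal markers, COL1A2, DCN and PDGFRB, were at most 0.746 CPM in any library. The part of these markers in the results below was not tested.

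Levels are given as CPM, library-scaled counts after the TMM method of edgeR, which takes the typical gene as fixed. In such bulk RNA, fewer cells of a kind and less RNA per cell cannot be told apart. A gene is called changed at an adjusted p under 0.05 in the edgeR quasi-likelihood test, adjusted over all 18844 tested features. The median log2 fold change of the 14865 tested Ensembl genes was -0.09 in Y79 and -0.11 in WERI-Rb-1 under TMM, -0.65 and -0.56 with library size as the only scaling, and -1.80 and -2.01 when libraries were scaled to the mitochondrial mRNAs. In the whole table this turned 5897 higher and 6084 lower features in Y79 into 3112 higher and 8994 lower with library size only and 697 higher and 13968 lower under mitochondrial scaling. In WERI-Rb-1 the split was 5467 higher and 5879 lower under TMM, 3120 and 8599 by library size alone, and 440 and 15504 under mitochondrial scaling. A TMM change is therefore relative to the typical gene.

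After THZ1, 5 of the 7 tested members were called in Y79, 2 higher (MCL1 and BAX) and 3 lower (BCL2L1, BAK1 and BOK). The same split was found in WERI-Rb-1, again with MCL1 and BAX higher and BCL2L1, BAK1 and BOK lower. Among all tested Ensembl genes 68.3% were called in Y79 (29.9% higher, 38.5% lower) and 64.8% in WERI-Rb-1 (27.7% higher, 37.2% lower), so the number of called members was near the background. CPM of treated and control libraries did not overlap for 5 of the 7 members in Y79 and 6 of the 7 in WERI-Rb-1, where 68.9% and 75.9% of Ensembl genes did not overlap. The median log2 fold change of the members was 0.17 in Y79 and -0.13 in WERI-Rb-1. With library size only the called members were 1 higher and 6 lower in Y79 and 0 higher and 5 lower in WERI-Rb-1, and under mitochondrial scaling all 7 tested members were called lower in both lines.

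**Figure D1:**
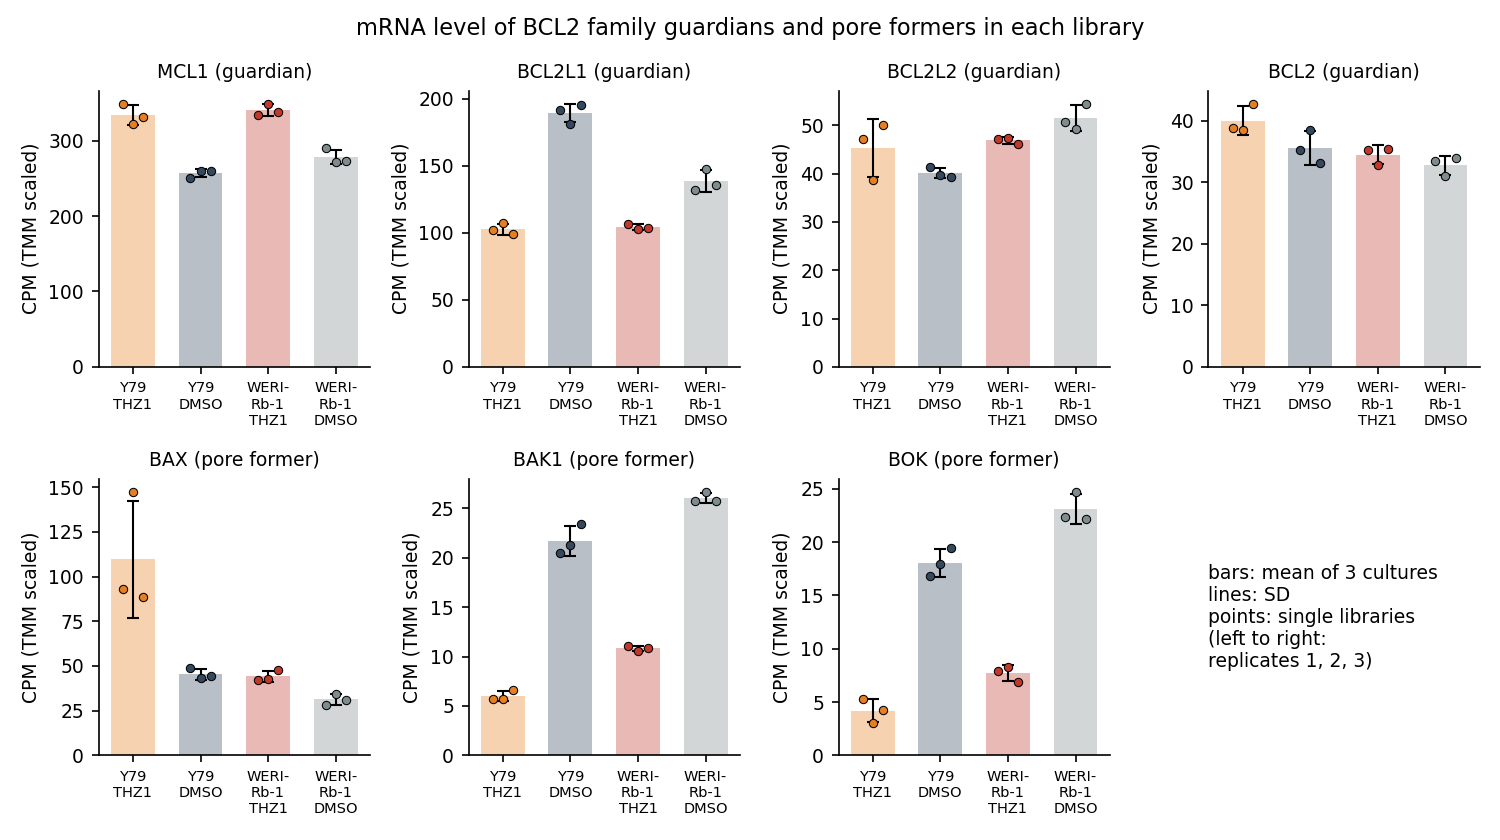
Level of the 7 tested members in each of the 12 libraries, in CPM on a linear axis from 0; bars are means of 3 cultures, lines are SD and points are libraries. BAK1 and BOK are lowest in THZ1-treated Y79 and highest in DMSO-treated WERI-Rb-1, and the BAX point at 147 CPM is the library of Y79 replicate 2 in THZ1.

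MCL1 (ENSG00000143384, chromosome 1, 150574551 to 150579738 on GRCh38, minus strand) encodes a guardian that binds BAK1 tightly and is turned over fast by the proteasome. In Y79 its level was 349, 322 and 331 CPM in the THZ1 libraries, against 251, 260 and 260 CPM in the DMSO libraries. In WERI-Rb-1 it was 334, 349 and 338 CPM in THZ1, against 290, 272 and 273 CPM in DMSO. Every treated library was above every control library of its line, and the treated libraries of the lines overlapped. The log2 fold change was 0.38 ± 0.0615 in Y79 (SE, adjusted p = 8.86e-05, edgeR) and 0.29 ± 0.0614 in WERI-Rb-1 (adjusted p = 0.000912). This rise is against the typical gene: scaled by library size alone, MCL1 was at -0.18 in Y79 (adjusted p = 0.0499) and -0.16 in WERI-Rb-1 (adjusted p = 0.0905), whereas mitochondrial scaling put it at -1.33 and -1.60. Relative to the median gene it lay 0.46 to 0.47 higher on the log2 scale in Y79 and 0.41 higher in WERI-Rb-1 under all 3 scalings.

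BCL2L1 (ENSG00000171552, chromosome 20, 31664452 to 31723989, minus strand) encodes BCL-XL, a stable guardian that restrains both BAX and BAK1, and by alternative splicing also a short form that promotes death. The Y79 libraries held 102, 107 and 98.9 CPM in THZ1, against 191, 181 and 195 CPM in DMSO. WERI-Rb-1 libraries held 107, 103 and 104 CPM in THZ1, against 132, 148 and 136 CPM in DMSO. Treated and control libraries did not overlap in either line, and the treated libraries of the lines overlapped. BCL2L1 fell 1.84-fold in Y79, with a log2 fold change of -0.88 ± 0.0648 (adjusted p = 3.36e-08, edgeR), and 1.33-fold in WERI-Rb-1, at -0.41 ± 0.0644 (adjusted p = 7.9e-05). Gene counts do not separate the long from the short splice form. An antisense gene, ABALON, covers 43.0% of the BCL2L1 exon bases on the other strand, and the library kit does not keep the strand, so reads from that part could come from either.

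BCL2L2 (ENSG00000129473, chromosome 14, 23298790 to 23311759, plus strand) encodes BCL-W, a guardian best known from neurons and the testis. Its Y79 level was 47.2, 38.6 and 50.2 CPM in THZ1, against 41.4, 39.8 and 39.4 CPM in DMSO. In WERI-Rb-1 it was 47.3, 47.4 and 46.1 CPM in THZ1, against 50.8, 49.3 and 54.5 CPM in DMSO. In Y79 the low treated library is replicate 2, which lies below all control libraries while the other treated libraries lie above them. Neither change passed the threshold, with a log2 fold change of 0.17 ± 0.0890 in Y79 (95% interval -0.02 to 0.37, adjusted p = 0.103, edgeR) and -0.13 ± 0.0884 in WERI-Rb-1 (-0.33 to 0.06, adjusted p = 0.206). Without Y79 THZ1 replicate 2 both were called, at 0.25 in Y79 (adjusted p = 0.00377) and -0.17 in WERI-Rb-1 (adjusted p = 0.0220). The table also lists the read-through gene BCL2L2-PABPN1, which shares 19.4% of the BCL2L2 exon bases and held 0 to 210 counts, so part of the reads could have gone to either row.

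BCL2 (ENSG00000171791, chromosome 18, 63123346 to 63320128, minus strand), the founding guardian of the family, held 38.8, 38.5 and 42.8 CPM in THZ1-treated Y79, against 35.2, 38.6 and 33.1 CPM in DMSO. In WERI-Rb-1 it held 35.2, 32.7 and 35.5 CPM in THZ1, against 33.5, 31.0 and 33.9 CPM in DMSO. The groups overlapped in both lines. The log2 fold change was 0.17 ± 0.0825 in Y79 (95% interval -0.01 to 0.35, adjusted p = 0.0901, edgeR) and 0.07 ± 0.0824 in WERI-Rb-1 (-0.11 to 0.25, adjusted p = 0.475). With library size only BCL2 and BCL2L2 were called lower in both lines. BCL2A1 (ENSG00000140379, chromosome 15, 79960889 to 79971446, minus strand), a guardian typical of blood cells and induced by NF-kB, had 0 counts in all 12 libraries. A count of 0 allows up to 3 counts per library, which is 0.0652 to 0.145 CPM, and this floor covers counting error only.

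Per kilobase of annotated exon, MCL1 and BCL2L1 made up most of the guardian mRNA. MCL1 took 62.8% ± 0.873 of the summed guardian CPM per kb in THZ1-treated Y79 and 45.7% ± 0.985 in DMSO, and 63.1% ± 0.835 in THZ1 and 52.8% ± 1.76 in DMSO in WERI-Rb-1 (SD, n = 3 each). BCL2L1 took 25.5% ± 1.56 in THZ1 and 44.4% ± 1.12 in DMSO in Y79, and 25.5% ± 0.676 in THZ1 and 34.6% ± 1.97 in DMSO in WERI-Rb-1. The ratio of MCL1 to BCL2L1 per kb, which needs no scaling between libraries, was 2.47 ± 0.171 in THZ1 and 1.03 ± 0.0480 in DMSO in Y79, and 2.48 ± 0.0985 in THZ1 and 1.53 ± 0.135 in DMSO in WERI-Rb-1. In both lines all 3 treated libraries lay above all 3 controls (two-sided exact permutation test, p = 0.1, which is the lowest value this design can give). The summed guardian level was 122 ± 3.34 CPM per kb in THZ1 and 128 ± 1.87 in DMSO in Y79, and 124 ± 1.20 in THZ1 and 121 ± 1.00 in DMSO in WERI-Rb-1. Treated minus control, the means of this sum differed by -6.87 CPM per kb in Y79 and 3.02 CPM per kb in WERI-Rb-1 under TMM, without overlap of the groups. The sum was not computed under the other scalings. With library size only the log2 fold changes of MCL1, BCL2L1, BCL2L2 and BCL2 were all negative in both lines. BCL2L2 and BCL2 made up the small remainder, at 8.89% and 2.80% in treated Y79 and 9.07% and 2.37% in treated WERI-Rb-1.

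**Figure D2:**
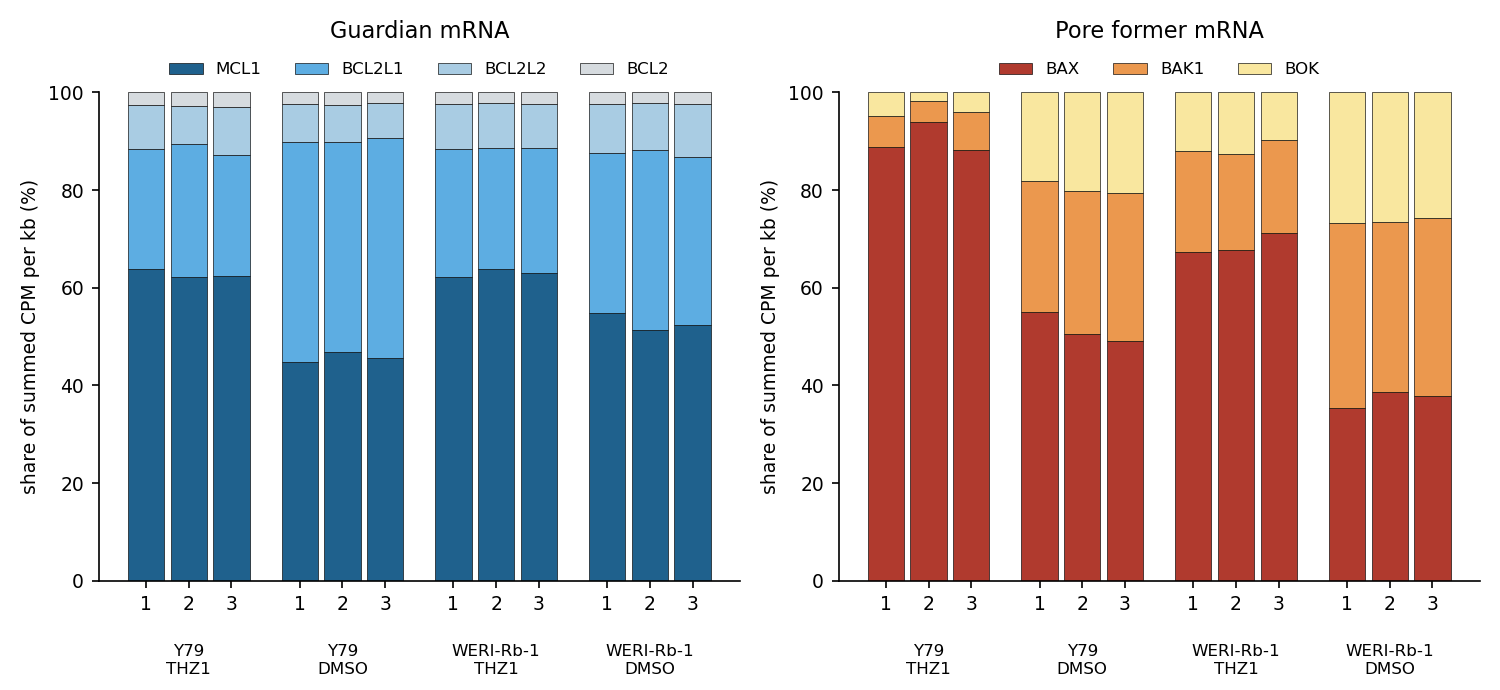
Share of each gene in the summed CPM per kb of the guardians and of the pore formers, in percent, 1 stacked bar per library with replicates 1, 2 and 3 left to right in each group. MCL1 widens and BCL2L1 narrows in treated libraries of both lines, and BAX takes 88.2% to 93.9% of pore former mRNA in treated Y79.

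The pore formers moved apart from each other: BAX was called higher, relative to the typical gene, and BAK1 and BOK were called lower in both lines. Promoter windows of the 3 genes are shown because their mRNAs went in opposite directions. Each is the 250 bases before the transcription start in RefSeq (build GRCh38.p14), read 5′ to 3′ on the gene's strand, with every CACGTG in capitals. The windows lie at chr19:48954625-48954874 on the plus strand for BAX, chr6:33580277-33580526 on the minus strand for BAK1 and chr2:241558495-241558744 on the plus strand for BOK. The GENCODE gene spans begin elsewhere. The BOK span begins at 241551424, upstream of its window. The spans of BAX and BAK1 begin inside their windows, at 48954815 and, on the minus strand, at 33580293. Counts of motifs below hold for the RefSeq starts only.
BAX: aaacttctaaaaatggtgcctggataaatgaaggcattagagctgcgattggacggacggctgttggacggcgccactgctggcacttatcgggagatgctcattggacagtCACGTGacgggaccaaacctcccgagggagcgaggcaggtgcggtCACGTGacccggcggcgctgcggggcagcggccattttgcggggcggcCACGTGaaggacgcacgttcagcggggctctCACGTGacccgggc
BAK1: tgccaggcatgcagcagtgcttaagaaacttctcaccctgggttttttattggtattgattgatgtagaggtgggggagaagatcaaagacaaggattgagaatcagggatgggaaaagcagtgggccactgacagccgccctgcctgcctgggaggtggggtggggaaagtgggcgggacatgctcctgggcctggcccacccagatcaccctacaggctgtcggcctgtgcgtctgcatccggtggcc
BOK: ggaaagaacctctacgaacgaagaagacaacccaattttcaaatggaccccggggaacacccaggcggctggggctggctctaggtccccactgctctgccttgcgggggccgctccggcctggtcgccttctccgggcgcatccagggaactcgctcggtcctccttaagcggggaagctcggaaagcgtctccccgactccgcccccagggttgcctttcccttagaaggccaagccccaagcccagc
CACGTG is the E-box bound by the MYC and MAX family among other factors, and it reads the same on both strands. The BAX window held 4 copies, which begin 138, 93, 45 and 14 bases before the start, and the BAK1 and BOK windows held 0. The copies at 45 and 14 bases lie inside the GENCODE span of BAX. Of 35116 RefSeq windows of this length 6.34% held at least 1 copy, and 5 windows, 0.0142%, held 4 or more (AMDHD2, BAX, LAMP1, RAD9A and SLC25A31, named after the search). The 4 further windows of BCL2, BCL2L1 (which has 2) and BCL2A1 held no copy. Other motifs were searched on either strand. The GC box (GGGCGG) occurred 1, 2 and 1 times in the BAX, BAK1 and BOK windows, and in 42.6% of all windows. CCAAT occurred 2, 1 and 1 times, and in 32.0% of all windows, and TATAAA occurred in none of these genes' windows. A match is a run of letters and not a measured binding site, and a link of any motif to the mRNA changes was not tested.

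BAX (ENSG00000087088, chromosome 19, 48954815 to 48961798 on GRCh38, plus strand) encodes a protein that waits in the cytosol and enters the mitochondrial membrane on activation. In Y79 it was at 93.3, 147 and 88.3 CPM in THZ1, against 49.0, 43.0 and 44.2 CPM in DMSO. In WERI-Rb-1 it was at 42.3, 42.4 and 47.7 CPM in THZ1, against 28.2, 34.4 and 31.2 CPM in DMSO. All treated libraries were above all controls of their line, and the highest by far was Y79 replicate 2, the library that also had the most ribosomal protein mRNA. BAX rose 2.41-fold in Y79, at a log2 fold change of 1.27 ± 0.159 (adjusted p = 8.62e-06, edgeR), and 1.41-fold in WERI-Rb-1, at 0.50 ± 0.159 (adjusted p = 0.0155). Without Y79 THZ1 replicate 2 the Y79 change was 0.97 (adjusted p = 1.32e-08). The WERI-Rb-1 call was lost without DMSO replicate 1 (0.42, adjusted p = 0.0667), without THZ1 replicate 3 (0.43, adjusted p = 0.0601) and with scaling by library size alone (0.05, adjusted p = 0.767). Mitochondrial scaling put BAX at -0.44 in Y79 and -1.40 in WERI-Rb-1.

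BAK1 (ENSG00000030110, chromosome 6, 33572547 to 33580293, minus strand) encodes the pore former that sits in the mitochondrial membrane at all times. Y79 libraries held 5.70, 5.67 and 6.57 CPM in THZ1, against 20.4, 21.3 and 23.4 CPM in DMSO. WERI-Rb-1 libraries held 11.1, 10.5 and 10.8 CPM in THZ1, against 25.7, 26.6 and 25.7 CPM in DMSO. Replicates of a group lay close together, and the 4 groups did not overlap at all. BAK1 fell 3.63-fold in Y79, at a log2 fold change of -1.86 ± 0.101 (adjusted p = 1.95e-09, edgeR), and 2.41-fold in WERI-Rb-1, at -1.27 ± 0.0960 (adjusted p = 6.39e-08). These values rest on 117 to 158 counts per library in treated Y79 and 847 to 971 in its controls, and on 311 to 317 in treated WERI-Rb-1 and 1095 to 1184 in its controls. The genome also carries processed copies, BAK1P1 on chromosome 20 and BAK1P2 on chromosome 11, and the sources used here do not say how reads common to them were counted.

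BOK (ENSG00000176720, chromosome 2, 241551424 to 241574138, plus strand) encodes the pore former that is normally removed by the proteasome. It was at 5.27, 3.05 and 4.28 CPM in THZ1-treated Y79, against 16.8, 18.0 and 19.4 CPM in DMSO. In WERI-Rb-1 it was at 7.87, 8.33 and 6.87 CPM in THZ1, against 22.4, 24.7 and 22.2 CPM in DMSO. As for BAK1, no group overlapped another, and the order from low to high was treated Y79, treated WERI-Rb-1, control Y79 and control WERI-Rb-1 for both genes. BOK fell 4.27-fold in Y79, at -2.09 ± 0.163 (adjusted p = 6.01e-08, edgeR), and 3.00-fold in WERI-Rb-1, at -1.58 ± 0.155 (adjusted p = 7.57e-07). Only 5.39% of tested Ensembl genes in Y79 and 7.64% in WERI-Rb-1 had a more negative log2 fold change, and for BAK1 these shares were 7.49% and 12.5%. BOK-AS1 overlaps 7.41% of the BOK exon bases on the other strand, and GGNBP1 overlaps 4.11% of those of BAK1.

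**Figure D3:**
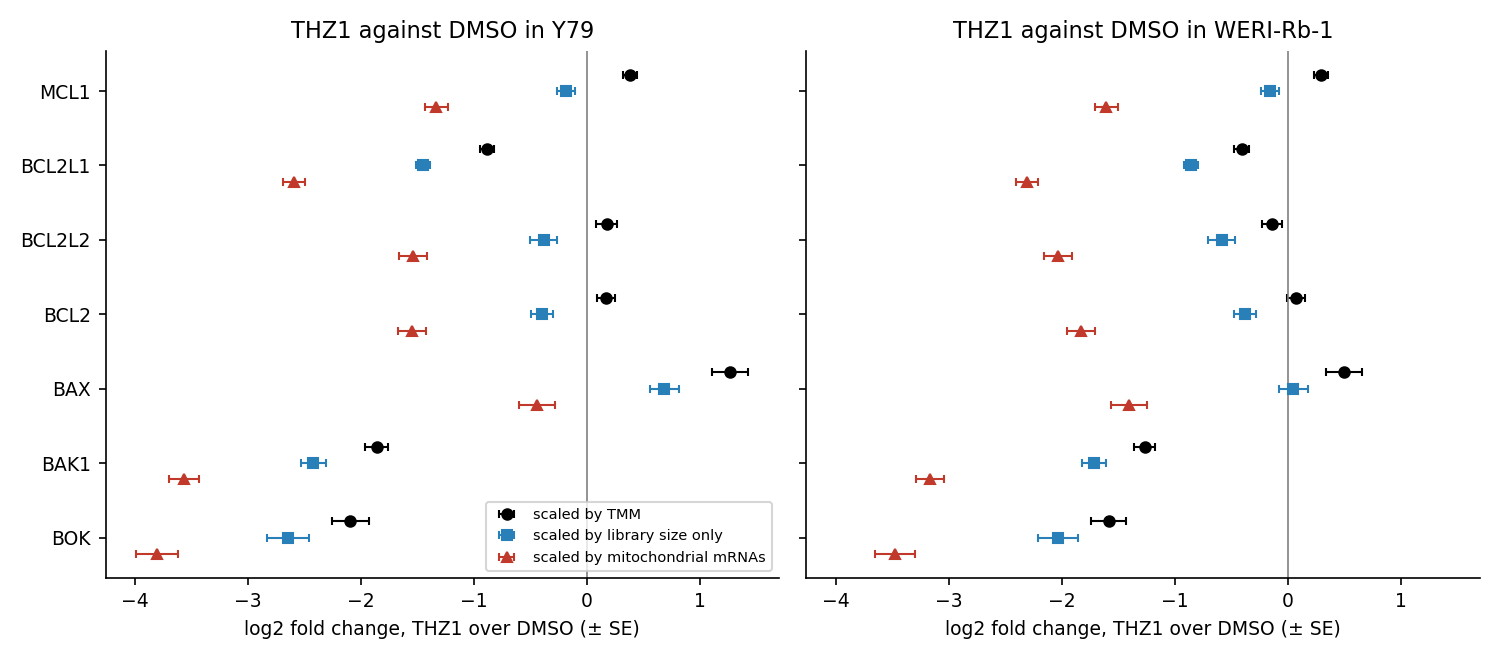
Log2 fold change of each tested member, THZ1 over DMSO, with SE, in Y79 and in WERI-Rb-1 under 3 ways of scaling libraries. MCL1 lies right of 0 with TMM and left of it with the other scalings; BAX does so only under mitochondrial scaling, and BCL2L1, BAK1 and BOK lie left of 0 under all 3.

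Within the pore former mRNA the balance shifted to BAX. Per kb, BAX took 90.3% ± 3.11 of the summed CPM in THZ1 and 51.6% ± 3.11 in DMSO in Y79, and 68.8% ± 2.16 in THZ1 and 37.3% ± 1.67 in DMSO in WERI-Rb-1 (SD, n = 3 each). The ratio of BAX to BAK1 per kb was 14.0, 22.2 and 11.5 in treated Y79, against 2.05, 1.73 and 1.62 in its controls. In WERI-Rb-1 it was 3.26, 3.44 and 3.76 in THZ1, against 0.938, 1.10 and 1.04 in DMSO. Treated libraries lay above controls in both lines (exact permutation test, two-sided, p = 0.1), and since both genes come from the same library this ratio needs no scaling. The ratio of BAK1 to BOK was 1.83 ± 0.477 in THZ1 and 1.47 ± 0.0197 in DMSO in Y79, and 1.74 ± 0.192 in THZ1 and 1.38 ± 0.0548 in DMSO in WERI-Rb-1. In Y79 the treated libraries had BAK1 to BOK ratios on both sides of the controls.

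Under TMM, the total pore former mRNA went different ways in the 2 lines. Summed per kb it was 40.6, 60.6 and 38.7 CPM in THZ1-treated Y79, against 34.4, 32.9 and 34.8 CPM in DMSO. In WERI-Rb-1 the sum was 24.3, 24.2 and 25.9 CPM in THZ1, against 30.8, 34.5 and 31.9 CPM in DMSO. Groups did not overlap in either line, and the treated sum was above controls in Y79 and below them in WERI-Rb-1. The sums were not computed under the other scalings, so these directions hold for TMM only. Under mitochondrial scaling BAX, BAK1 and BOK were each called lower in both lines. The ratio of summed guardian to summed pore former mRNA was 2.72 ± 0.666 in THZ1 and 3.78 ± 0.0733 in DMSO in Y79, and 4.99 ± 0.213 in THZ1 and 3.73 ± 0.206 in DMSO in WERI-Rb-1. The 14 shares, sums and ratios tested this way each had a p of 0.1 in the exact permutation test and an adjusted p of 0.1 by the Benjamini-Hochberg method, so none could pass 0.05, and the difference between the lines in these sums was not tested. These are mRNA levels, and protein was not measured.

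The THZ1 changes were then set against each other between the lines, as the change in Y79 minus the change in WERI-Rb-1. Of the 7 members 3 were called, 1 higher and 2 lower, where 22% of Ensembl genes were called (8.74% higher, 13.2% lower). BAX rose more in Y79, by 0.77 ± 0.223 on the log2 scale (adjusted p = 0.0288, edgeR). Without Y79 THZ1 replicate 2 this difference was 0.50 (adjusted p = 0.00313), and it missed the threshold in 6 of the other fits that leave out 1 library, at 0.70 to 0.77 (adjusted p 0.0596 to 0.0737). BAK1 fell more in Y79, by -0.59 ± 0.137 (adjusted p = 0.00885), and so did BCL2L1, by -0.48 ± 0.0910 (adjusted p = 0.00277). Under mitochondrial scaling these calls were lost, at -0.40 for BAK1 (adjusted p = 0.126) and -0.29 for BCL2L1 (adjusted p = 0.156).

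The difference for BOK was -0.51 ± 0.221 (95% interval -0.98 to -0.03, adjusted p = 0.131), and without Y79 THZ1 replicate 1 it was called at -0.70 (adjusted p = 0.0272). For BCL2L2 it was 0.31 ± 0.125 (0.04 to 0.58, adjusted p = 0.106), and without Y79 THZ1 replicate 2 it was called at 0.41 (adjusted p = 0.00203). MCL1 differed by 0.09 ± 0.0868 (-0.10 to 0.27, adjusted p = 0.545) and BCL2 by 0.10 ± 0.117 (-0.15 to 0.35, adjusted p = 0.637), neither of them called.

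Before any THZ1, the lines already differed in these genes. In DMSO, 4 of the 7 members were called between Y79 and WERI-Rb-1, 2 higher and 2 lower in Y79, where 64.9% of Ensembl genes were called (32.3% higher, 32.6% lower). CPM did not overlap between the lines for 6 of the 7, all but BCL2, where 77.9% of Ensembl genes did not overlap. BCL2L1 was higher in Y79, at 189 ± 7.02 CPM against 138 ± 8.28 CPM in WERI-Rb-1 (log2 fold change 0.45 ± 0.0640, adjusted p = 3.2e-05, edgeR), and BAX was higher at 45.4 ± 3.15 CPM against 31.3 ± 3.10 CPM (0.54 ± 0.158, adjusted p = 0.00975). BCL2L2 was lower in Y79, at 40.2 ± 1.05 CPM against 51.5 ± 2.67 CPM (-0.36 ± 0.0882, adjusted p = 0.00293). BAK1 was lower at 21.7 ± 1.51 CPM against 26.03 ± 0.526 CPM (-0.26 ± 0.0928, adjusted p = 0.0246), a call lost without any 1 of the WERI-Rb-1 DMSO libraries or without Y79 DMSO replicate 1 or 2 (adjusted p 0.0531 to 0.101). BOK missed the threshold at -0.35 ± 0.148 (adjusted p = 0.0527), as did MCL1 at -0.12 ± 0.0613 (adjusted p = 0.118) and BCL2 at 0.12 ± 0.0819 (adjusted p = 0.224). BOK was called lower in Y79 in 10 of 20 alternative fits (adjusted p 0.000762 to 0.159 over the 20), among them those without any 1 of the Y79 THZ1 libraries or without WERI-Rb-1 THZ1 replicate 2. MCL1 was called lower in 5 of 20 (0.00262 to 0.325), among them the fit without Y79 THZ1 replicate 2. Under mitochondrial scaling the calls of BCL2L1 (0.17, adjusted p = 0.121) and BAX (0.26, adjusted p = 0.175) were lost.

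In THZ1, 4 of the 7 members were called between the lines, 2 higher and 2 lower in Y79, against 67.1% of Ensembl genes (31% higher, 36.1% lower). CPM did not overlap for 4 of the 7 (BAX, BAK1, BOK and BCL2), against 68.2% of Ensembl genes. The largest differences among the members were those of the 3 pore formers. BAX was 2.48-fold higher in Y79, at 110 ± 32.7 CPM against 44.1 ± 3.05 CPM in WERI-Rb-1 (log2 fold change 1.31 ± 0.160, adjusted p = 8.07e-06, edgeR), and 1.02 without Y79 THZ1 replicate 2 (adjusted p = 9.13e-09). BAK1 was lower at 5.98 ± 0.511 CPM against 10.8 ± 0.277 CPM (-0.86 ± 0.101, adjusted p = 5.16e-06), and BOK at 4.20 ± 1.11 CPM against 7.69 ± 0.750 CPM (-0.86 ± 0.164, adjusted p = 0.000407). BCL2 was higher at 40.0 ± 2.39 CPM against 34.5 ± 1.51 CPM (0.22 ± 0.0830, adjusted p = 0.0357), a call kept in 9 of 20 alternative fits and lost in the others, among them those without WERI-Rb-1 THZ1 replicate 1, 2 or 3, Y79 DMSO replicate 1, or Y79 THZ1 replicate 1 or 3 (adjusted p 0.0503 to 0.144). The other guardians were not called between the treated lines, with MCL1 at -0.03 (95% interval -0.16 to 0.10, adjusted p = 0.716) and BCL2L1 at -0.02 (-0.16 to 0.12, adjusted p = 0.767), and BCL2L2 was at -0.05 (-0.24 to 0.14, adjusted p = 0.653). With library size only all 3 were called lower in Y79, at -0.30, -0.30 and -0.32. The comparisons in DMSO and in THZ1 share their libraries with the THZ1 comparisons above.

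Genes that switch the guardians and pore formers on or off, and genes that act after the pores open, were taken from 5 lists of known partners. Among all tested Ensembl genes 29.9% were called higher and 38.5% lower in Y79, and 27.7% and 37.2% in WERI-Rb-1. Of 8 BH3-only genes, 2 were higher and 1 lower in Y79, and 1 was higher and 2 lower in WERI-Rb-1, with median log2 fold changes of 0.09 and -0.24; scaled by library size alone, 0 were higher and 5 lower in each line. PMAIP1 (NOXA), the BH3-only protein that binds MCL1 and marks it for degradation, was at 73.9 ± 5.59 CPM in THZ1 and 74.7 ± 3.80 CPM in DMSO in Y79 (log2 fold change -0.02 ± 0.0748, adjusted p = 0.893, edgeR). Scaled by library size alone PMAIP1 was called lower in Y79 (-0.58, adjusted p = 9.94e-06). It rose in WERI-Rb-1, to 197 ± 5.58 CPM in THZ1 against 134 ± 9.11 CPM in DMSO (0.56 ± 0.0739, adjusted p = 1.56e-05), a call lost when scaled by library size alone (0.11, adjusted p = 0.229). BMF, which senses cytoskeletal stress, fell in both lines, at -1.45 ± 0.232 in Y79 (adjusted p = 7.73e-05) and -1.90 ± 0.231 in WERI-Rb-1 (adjusted p = 6.51e-06). HRK, a neuronal BH3-only gene, fell in WERI-Rb-1, to 1.01 ± 0.282 CPM in THZ1 against 3.83 ± 0.154 CPM in DMSO (-1.92 ± 0.305, adjusted p = 8.2e-05), and in Y79 was at -0.16 ± 0.290 (adjusted p = 0.656). By library size alone HRK was called lower in Y79 as well (-0.73, adjusted p = 0.0380).

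BIK, which acts from the endoplasmic reticulum, was called higher in Y79 at 0.958 ± 0.260 CPM in THZ1 against 0.408 ± 0.174 CPM in DMSO (1.22 ± 0.496, adjusted p = 0.0441), on at most 29 counts in any library. BBC3 (PUMA), the p53-induced activator, was the other BH3-only gene called higher in Y79 (0.50 ± 0.190, adjusted p = 0.0347), and was at 0.22 ± 0.190 in WERI-Rb-1 (adjusted p = 0.331). BCL2L11 (BIM) was at 0.25 ± 0.121 in Y79 (adjusted p = 0.0883) and -0.27 ± 0.133 in WERI-Rb-1 (adjusted p = 0.0909). Of 5 other BCL2 family genes only BCL2L12 and BCL2L13 had enough reads, and BCL2L12 fell at -1.04 ± 0.275 in Y79 (adjusted p = 0.00435) and -1.31 ± 0.275 in WERI-Rb-1 (adjusted p = 0.000892). BCL2L13 fell in Y79 at -0.74 ± 0.0844 (adjusted p = 3.03e-06) and was at -0.14 ± 0.0821 in WERI-Rb-1 (adjusted p = 0.159). Scaled by library size alone it was called lower in both lines, at -1.30 in Y79 and -0.59 in WERI-Rb-1.

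Downstream of the pore, 6 genes of the apoptosome and of the released mitochondrial factors were measured, and 1 was higher and 5 lower in each line (median log2 fold change -0.86 in Y79 and -0.79 in WERI-Rb-1). The background shares called lower were 38.5% of tested Ensembl genes in Y79 and 37.2% in WERI-Rb-1, and the list was not tested as a set. The higher one was CYCS, cytochrome c itself, at 301 ± 45.4 CPM in THZ1 and 160 ± 7.86 CPM in DMSO in Y79 (0.91 ± 0.0959, adjusted p = 1.25e-06, edgeR). In WERI-Rb-1 it was at 235 ± 16.6 CPM in THZ1 and 94.99 ± 2.45 CPM in DMSO (1.31 ± 0.0969, adjusted p = 5.16e-08). APAF1, the scaffold that cytochrome c activates, fell at -1.14 ± 0.138 in Y79 (adjusted p = 5.13e-06) and -1.05 ± 0.137 in WERI-Rb-1 (adjusted p = 1.25e-05). DIABLO (SMAC), which frees caspases from their inhibitors, fell to 17.3 ± 5.15 CPM in THZ1 against 47.7 ± 3.08 CPM in DMSO in Y79 (-1.47 ± 0.150, adjusted p = 9.36e-07).

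Of 4 partners in the outer mitochondrial membrane 2 rose and 2 fell in each line. The background shares were 29.9% higher and 38.5% lower in Y79, and 27.7% and 37.2% in WERI-Rb-1. VDAC1, the main channel of this membrane, rose to 438 ± 35.6 CPM in THZ1 against 204 ± 6.40 CPM in DMSO in Y79 (1.11 ± 0.0733, adjusted p = 1.21e-08, edgeR), and to 340 ± 11.8 CPM against 139 ± 7.20 CPM in WERI-Rb-1 (1.29 ± 0.0737, adjusted p = 5.13e-09). MTCH2, the receptor through which the BH3-only protein BID reaches mitochondria, fell at -1.25 ± 0.0931 in Y79 (adjusted p = 3.8e-08) and -0.33 ± 0.0923 in WERI-Rb-1 (adjusted p = 0.00628). Of 6 ubiquitin ligases and deubiquitinases that act on MCL1, 1 rose and 4 fell in Y79, and 1 rose and 5 fell in WERI-Rb-1, against the same background shares. FBXW7, a ligase adaptor for MCL1, rose at 1.18 ± 0.0929 in Y79 (adjusted p = 6.86e-08) and 0.68 ± 0.0921 in WERI-Rb-1 (adjusted p = 1.73e-05). USP13, a deubiquitinase of MCL1, fell at -1.05 ± 0.0743 in Y79 (adjusted p = 2.4e-08) and -0.996 ± 0.0752 in WERI-Rb-1 (adjusted p = 6.18e-08), and BTRC, another ligase adaptor, fell at -0.54 ± 0.113 and -1.25 ± 0.114 (adjusted p = 0.000804 and 3.82e-07). The gene not called in Y79 was MARCH5 (-0.08 ± 0.0833, adjusted p = 0.410), which was called lower there by library size alone (-0.65). These rises are relative to the typical gene: by library size alone CYCS and VDAC1 were still called higher in both lines, at 0.34 and 0.53 in Y79 and 0.86 and 0.84 in WERI-Rb-1, while FBXW7 was called only in Y79 (0.62, adjusted p = 0.000373; 0.24 in WERI-Rb-1, adjusted p = 0.0992) and VDAC2 only in WERI-Rb-1. Under mitochondrial scaling no gene of the 5 lists was called higher in either line, and all 6 genes of the apoptosome list were called lower.

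**Figure D4:**
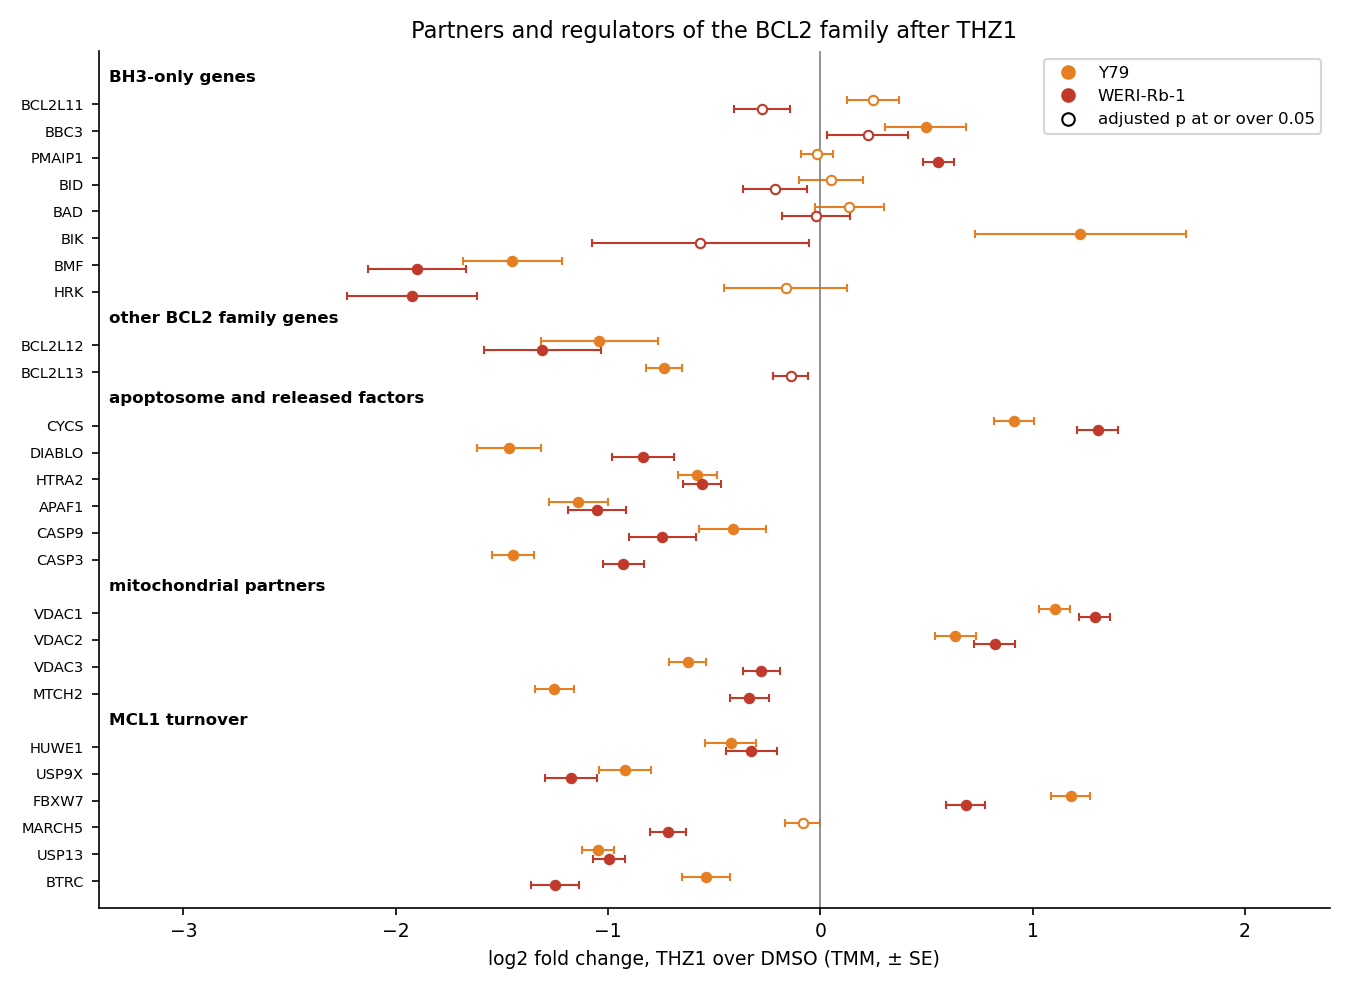
Log2 fold change, THZ1 over DMSO under TMM, with SE, of the tested genes of the 5 partner lists, Y79 above WERI-Rb-1 in each row; open points missed the adjusted p threshold. CYCS and VDAC1 lie near 1 in both lines under this scaling and were not higher under mitochondrial scaling, and 5 of 6 genes of the apoptosome list lie left of 0 in each line. Of all tested Ensembl genes, 38.5% in Y79 and 37.2% in WERI-Rb-1 were called lower.

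The genes whose pattern over the 12 libraries was most like each member were found by the root mean square difference of log2 CPM about each gene's mean, among 10786 Ensembl genes whose log2 CPM averaged 2 or more. For MCL1 these were BAG5 (0.0566) and CHD2 (0.0580), and for BCL2L1 WBP11 (0.0657). BAX was most like IMPDH2 (0.0816) and QTRT1 (0.112), BAK1 most like URGCP (0.0861) and ISG20L2 (0.111), and BOK most like ZNF689 (0.136) and TBL2 (0.151). BCL2L2 was most like ZNF587 (0.0676) and ITPRID2 (0.0771), and BCL2 most like OSTM1 (0.0639) and TENT2 (0.0821). These distances are smaller than the members' own spread about their mean, which was 0.679 for BAX, 0.842 for BAK1, 1.002 for BOK and 0.126 for BCL2. They are a description over 12 libraries that share treatments and lines.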

How the data were processed

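RNA-seq of 12 cultures was analysed from 1 table of whole-number counts per gene, which the authors deposited without normalization that the values show. Per the labels' protocols the libraries were made with the NEBNext Ultra RNA kit, which keeps no strand, and the submitters' processing notes name Cufflinks and GRCh38. The Cufflinks version, the aligner and the counting rule were not stated in the sources used here. Groups came from the sample titles, and the labels give no batch.

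The model was fitted with edgeR 4.0.16 in R 4.3.3 (filterByExpr, TMM, robust glmQLFit, glmQLFTest) on all 12 libraries with 1 mean per group and 8 residual degrees of freedom. Two-sided p-values of a comparison were adjusted (Benjamini-Hochberg) over its 18844 features. SE was derived as |log2 fold change| over √F. Background shares cover the 14865 tested Ensembl genes. CPM per kb divides by the exon bases of GENCODE release 29, in which all 19974 Ensembl genes of the table were found, and 27 symbols that had become dates were restored from it. The code was tested on simulated data. Promoters came from RefSeq, where 6 of 8 members were matched. Shares and figures were made with matplotlib 3.10.9, scipy 1.17.1, numpy 2.4.6 and pandas 2.3.3 under Python 3.11.15.

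The members and partner lists were chosen with earlier results of these data known. Named partners are, per list and THZ1 comparison, the called genes with the largest and smallest log2 fold change. BBC3, BCL2L11, BCL2L13 and MARCH5 were added after their values were seen, and a few genes are not reported here. Where several identifiers share a symbol, the one with the most counts was used. Alternatives were RLE factors, library size only, mitochondrial scaling, no filter, Ensembl genes only, only the groups compared, a replicate block, leaving out each library, and DESeq2 1.42.0. No label says that cultures came from separate passages, so p-values measure the spread between these cultures.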

Additional observations from a re-analysis of the deposited data

Results flagged for a closer look

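For 3 members and 8 partner genes the THZ1 change differed between the lines, by the edgeR test of the difference itself (Y79 minus WERI-Rb-1, log2 scale, adjusted p under 0.05). Among the members these were BAX at 0.77, BAK1 at -0.59 and BCL2L1 at -0.48, with the adjusted p-values given above. Under TMM BAX rose more in Y79, and BAK1 and BCL2L1 fell more there. Among the partners PMAIP1 differed by -0.57 (adjusted p = 0.00218), being called higher in WERI-Rb-1 and not called in Y79 under TMM. With library size only PMAIP1 was not called in WERI-Rb-1 and was called lower in Y79. HRK differed by 1.76 (adjusted p = 0.0102) and BTRC by 0.71 (adjusted p = 0.00715), and the log2 fold change of each was more negative in WERI-Rb-1. MTCH2 differed by -0.92 (adjusted p = 0.000392) and DIABLO by -0.63 (adjusted p = 0.0478), and both fell more in Y79. BCL2L13 differed by -0.60 (adjusted p = 0.00337) and under TMM was called lower in Y79 but not in WERI-Rb-1. MARCH5 differed by 0.64 (adjusted p = 0.00232) and under TMM was called lower in WERI-Rb-1 but not in Y79. With library size only, each of these genes was called lower in both lines (BCL2L13 at -0.59 in WERI-Rb-1 and MARCH5 at -0.65 in Y79). FBXW7 differed by 0.49 (adjusted p = 0.0174) and rose more in Y79. The background share for this test is 22% of Ensembl genes.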

How the results depend on the processing

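Over 20 alternatives, 612 of 693 member results kept their direction and side of the threshold, 31 gained a call and 29 lost one in the same direction, and 21 changed direction. The falls of BCL2L1, BAK1 and BOK after THZ1 kept their call in every alternative run in both lines. Leaving out 1 library put the Y79 change at -0.94 to -0.87 for BCL2L1, -1.94 to -1.81 for BAK1 and -2.32 to -1.95 for BOK. MCL1 was at 0.33 to 0.38 and BCL2 at 0.11 to 0.22 in these fits. The difference between the lines was -0.53 to -0.43 for BCL2L1, -0.65 to -0.54 for BAK1 and -0.70 to -0.33 for BOK. Between the treated lines BAK1 was at -0.93 to -0.83 and BOK at -1.07 to -0.70. Direction changed with scaling: MCL1 was at -0.18 in Y79 and -0.16 in WERI-Rb-1 with library size only and at -1.33 and -1.60 under mitochondrial scaling, and BAX was at -0.44 and -1.40 under mitochondrial scaling. BCL2, not called under TMM, was called lower at -0.39 and -0.38 with library size only and at -1.55 and -1.83 under mitochondrial scaling, and BCL2L2 in Y79 at -0.38 and -1.54. Between the treated lines BCL2 was at -0.058 with library size only. The other changes of direction were between values that were not called: with library size only BCL2 was at -0.016 and MCL1 at -0.026 in the difference, and BCL2 was at -0.042 between lines in DMSO (-0.15 under mitochondrial scaling). Between lines in THZ1, BCL2L1 was at 0.0037 and MCL1 at 0.00035 with Ensembl genes only, and leaving out 1 library put BCL2L1 at -0.076 to 0.0015 and BCL2L2 at -0.13 to 0.031, the ends coming without Y79 THZ1 replicate 2 or 3. Members called in the difference between the lines numbered 1 under mitochondrial scaling, against 3. Leaving out 1 library gave 5 to 6 called members in Y79, 4 to 6 in WERI-Rb-1, 2 to 4 in the difference, 3 to 6 between lines in DMSO and 3 to 4 in THZ1. Features called ranged over 11142 to 12226, 10353 to 12313, 2522 to 5629, 10379 to 12716 and 10940 to 12230 for these comparisons. The 5629 came without Y79 THZ1 replicate 2, against 3542 with all libraries. RLE factors, Ensembl genes only and DESeq2 called BCL2 and BCL2L2 higher in Y79.

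No label says whether replicate numbers pair the cultures. Deviations of 18 same-numbered pairs, 6 of them within a line, correlated at -0.045 to 0.051. Differently numbered pairs correlated at -0.060 to 0.078. Correlations this weak, over 3 cultures per group, cannot decide whether the cultures were paired. A replicate block called 5 members in Y79 and 5 in WERI-Rb-1, 2 in the difference (BAX at 0.73, adjusted p = 0.0539), 4 in DMSO and 3 in THZ1, with 11395, 10762, 2496, 11069 and 11381 features. A fit of only the groups compared was not run for the difference, which needs all 4. Depth limits BOK most, at 63 counts in 1 treated Y79 library, and gene counts hide splice forms.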
